A study of Mus musculus with 384 samples.

Results

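The insulin-like growth factor (IGF) family was examined across single cells of the adult mouse lung that were sorted by an Lgr5 or Lgr6 label. It comprised 9 of the 23422 genes in the counts: the ligands Igf1 and Igf2, the receptor Igf1r, and the binding proteins Igfbp2, Igfbp3, Igfbp4, Igfbp5, Igfbp6 and Igfbp7, taken by gene symbol. Lgr5+ cells carried the Tomato label of 2 Lgr5-CreERT2;R26-Tom mice, in which the Lgr5 locus drives an inducible Cre and Tomato stays on in every descendant of a recombined cell. Lgr6+ cells carried the GFP of 2 Lgr6-EGFP-CreERT2 mice, in which GFP is made from the Lgr6 locus itself. Lgr5+ cells were taken after induction of Cre, no induction is given for the Lgr6+ cells, and the labels give an age of 7 to 10 weeks for most experiments. Both sorts removed cells with CD31, CD45, CD11b or TER119, so line, reporter and induction cannot be told apart. Cells were also divided by Acta2, which encodes smooth muscle actin, at a log2(TPM + 1) of 11. TPM, an abundance corrected for transcript length, scales the transcripts of a cell to a common total, and log2(TPM + 1) is called the level below.

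IGF1 and IGF2 are secreted peptides that signal mainly through the receptor tyrosine kinase IGF1R, which feeds the PI3K-AKT and MAPK pathways for growth and survival. IGF binding proteins hold the ligands outside the cell, where they can shield them from the receptor, carry them or release them after proteolysis. In the lung, mesenchymal cells are a known source of these proteins, and IGF signaling is known for its part in lung growth and in smooth muscle and fibroblast biology.

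On GRCm38 (mm10), all 9 genes are protein-coding. Igf1 lies on chromosome 10 from 87858265 to 87937042, Igf2 on chromosome 7 from 142650766 to 142666816 and Igf1r on chromosome 7 from 67952827 to 68233668. Igfbp2 (chromosome 1, 72824503 to 72852474) and Igfbp5 (chromosome 1, 72857932 to 72874884) are neighbors 5457 bases apart that converge, since Igfbp2 is read from the plus strand and Igfbp5 from the minus strand. Igfbp3 lies on chromosome 11 from 7206086 to 7213923, Igfbp4 on chromosome 11 from 99041244 to 99054392, Igfbp6 on chromosome 15 from 102144362 to 102149511 and Igfbp7 on chromosome 5 from 77349240 to 77408041.

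The sequences just before the starts of Igfbp3 and Igfbp4 are shown because these genes gave the highest mean TPM of the family in Lgr5+ cells. Each is the 250 bases before the RefSeq start on GRCm38.p6, which hold no annotated exon of the gene, written 5′ to 3′ on the gene's strand, with CG dinucleotides and any TATAAA in capitals. The Igfbp3 window is chr11:7213924-7214173 (minus strand) and the Igfbp4 window is chr11:99040994-99041243 (plus strand).
Igfbp3: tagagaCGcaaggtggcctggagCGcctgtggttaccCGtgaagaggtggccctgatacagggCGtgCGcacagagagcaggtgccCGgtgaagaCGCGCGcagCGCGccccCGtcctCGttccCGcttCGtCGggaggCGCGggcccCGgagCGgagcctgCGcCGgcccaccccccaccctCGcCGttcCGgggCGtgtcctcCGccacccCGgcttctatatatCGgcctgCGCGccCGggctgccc
Igfbp4: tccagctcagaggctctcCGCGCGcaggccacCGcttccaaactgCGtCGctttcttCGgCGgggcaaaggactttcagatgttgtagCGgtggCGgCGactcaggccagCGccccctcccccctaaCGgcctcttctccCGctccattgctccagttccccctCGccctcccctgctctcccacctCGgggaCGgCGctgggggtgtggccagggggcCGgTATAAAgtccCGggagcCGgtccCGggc

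The Igfbp3 window holds 32 CG dinucleotides, a number that 4.58% of 32851 RefSeq windows of the same length reach or pass, and the Igfbp4 window holds 22, which 14.8% reach or pass. Igf1r had 42 (0.865% reach or pass), Igf1 had 5, and the median of all windows was 6. TATAAA, searched on both strands, lies 28 bases before the Igfbp4 start and is absent from the Igfbp3 window; 12.4% of all windows hold it. These counts describe letters only, and no promoter measurement was made in these cells.

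Kept cells numbered 29 and 28 in the Lgr5+ mice against 50 and 75 in the Lgr6+ mice, and their summed counts ran from 9874249 to 124650544 per mouse. The mouse is the replicate (n = 2 per line). Acta2-high cells numbered 27 of 50 and 38 of 75 in the Lgr6+ mice, but 1 of 29 and 0 of 28 in the Lgr5+ mice, so the classes were compared within the Lgr6+ mice. Lgr5 itself had 709 and 401 CPM (counts scaled to a common library total) in the Lgr5+ mice against 28.9 and 63.5 in the Lgr6+ mice, in the direction of the labels, whereas Lgr6 had 30.1 and 63.7 against 46.02 and 48.3. RNA of other cell types differed between the groups too. Epcam, an epithelial marker, was at a level of 1 or more in 7 of 29 and 8 of 28 Lgr5+ cells. In the Lgr6+ mice 3 of 50 and 4 of 75 cells had it. The summed level of 8 epithelial markers was 48098 and 28398 CPM in the Lgr5+ mice, 3231 and 21941 CPM in Acta2-lower Lgr6+ cells, and 7.42 and 2.73 CPM in Acta2-high Lgr6+ cells. For 8 immune markers it was 4771 and 7267, 1577 and 6908, and 9.57 and 29.6 CPM. Hbb-bh1, an embryonic globin, had 287 and 305 CPM in the Lgr5+ mice against 0.107 and 0. The summed level of 8 endothelial markers, in the same order, was 3.75 and 91.8, 190.2 and 9.79, and 0 and 0.627 CPM. The authors kept only cells with Pecam1 and Ptprc below a TPM of 1, so those markers were low by selection, and Pecam1 was at 0 in all mice. Tyrobp and Fcer1g were at 0 except in Acta2-high cells of Lgr6 mouse 2. Cd52 and Laptm5 were also at 0 in Lgr5 mouse 2, and Cd52, Laptm5 and Coro1a in Acta2-lower cells of Lgr6 mouse 2. In the latter the immune sum of 6908 CPM thus came from Ptprc, Cd74 and Lyz2 alone. The endothelial genes Egfl7, higher in Lgr5+ cells in both comparisons of the lines, and Kdr, lower in Acta2-high cells, had an unadjusted p under 0.05. Fits without cells with Epcam reads were run as an alternative, and beyond that the part of these RNAs in the results below was not tested.

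The first comparison asked how the family differed between the lines. Igfbp3, the main carrier of IGFs in blood, gave the widest difference of levels. Its mean level over kept cells was 8.53 and 7.90 in the Lgr5+ mice against 2.26 and 2.09 in the Lgr6+ mice, or 8.21 ± 0.45 against 2.18 ± 0.12 (SD, n = 2 mice each). Both Lgr5+ mice lay above both Lgr6+ mice, with a two-sided exact permutation p of 0.333, the smallest that 2 mice against 2 allow. P-values below come from edgeR's quasi-likelihood model of the summed counts and were adjusted over all genes tested by the Benjamini-Hochberg method. In summed counts Igfbp3 had 1166 and 1445 CPM against 200.3 and 190.6 CPM, which gave a fitted log2 difference of 2.74 (Lgr5+ minus Lgr6+, standard error 0.37, adjusted p = 0.327 (edgeR)). The difference in summed counts is smaller than that of mean levels, since the cells that had Igfbp3 reads had mean levels of 9.90 and 9.21 in the Lgr5+ mice against 8.69 and 8.26 in the Lgr6+ mice. What differed more was how many cells had reads. Igfbp3 was read in 86.2% (exact Clopper-Pearson 95% interval 68.3 to 96.1%) and 85.7% (67.3 to 95.97%) of Lgr5+ cells, and in 13 of 50 (14.6 to 40.3%) and 19 of 75 (15.99 to 36.7%) Lgr6+ cells. These intervals cover counting error only, since reads were not tied to molecules. Thinning every cell to 99000 reads dropped 1, 3, 13 and 2 cells that were too shallow, and Igfbp3 was then read in 24 of 28, 21 of 25, 9 of 37 and 17 of 73 cells.

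**Figure D1:**
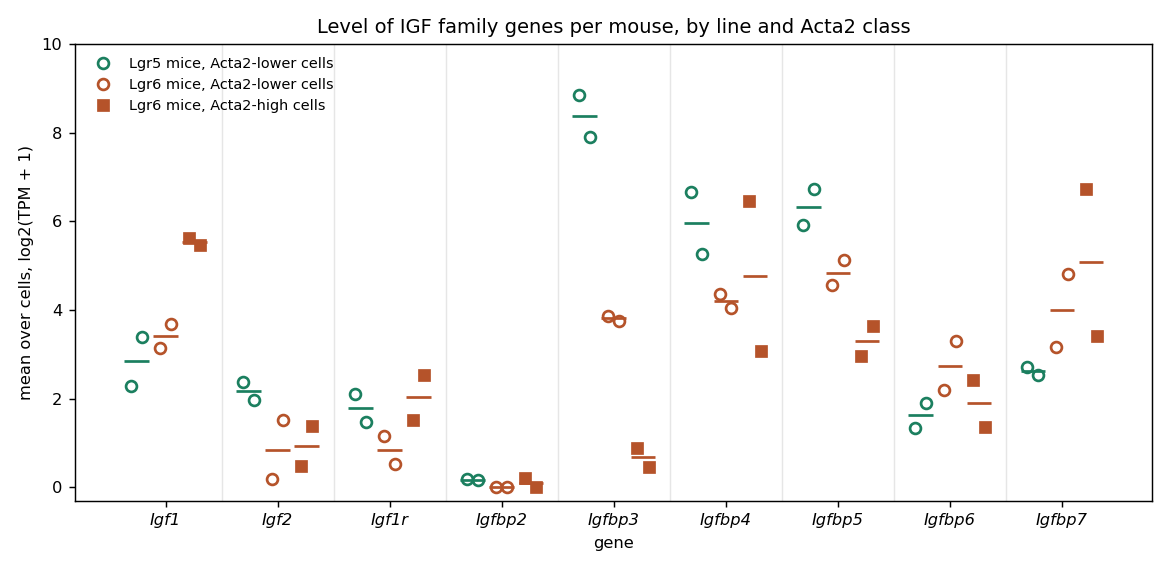
Mean level of each gene, as log2(TPM + 1) averaged over the cells of a mouse, for Acta2-lower cells of the 2 Lgr5+ mice (open green circles), and for Acta2-lower (open orange circles) and Acta2-high cells (filled orange squares) of the 2 Lgr6+ mice; each symbol is a mouse and each line a mean of 2 mice. Igfbp3 falls into 3 levels that do not overlap, while Igf1 is highest in Acta2-high cells.

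Igfbp5, a binding protein that attaches to extracellular matrix, had levels of 5.94 and 6.73 in the Lgr5+ mice against 3.69 and 4.37 in the Lgr6+ mice. Its summed counts were 809 and 1021 CPM against 519 and 451 CPM, which gave a fitted log2 difference of 0.92 (standard error 0.36) with an adjusted p of 0.496 (edgeR). The mice of the lines did not overlap on either scale. Igfbp4, which is known to restrain IGF action until it is cut by the protease PAPP-A, had levels of 6.73 and 5.27 against 5.49 and 3.55, so that the lines overlapped. Igfbp7, a binding protein of low affinity for IGFs, went the other way, with levels of 2.85 and 2.53 in the Lgr5+ mice against 5.10 and 4.11 in the Lgr6+ mice. Igfbp6, which prefers IGF2, had levels of 1.30 and 1.90 against 2.32 and 2.32. Its summed counts of 32.1, 72.8, 526 and 75.01 CPM show 1 mouse apart from the others, and 94.4% of its reads in that mouse, Lgr6 mouse 1, came from 1 cell. Igfbp2 was read in 1 kept cell of each of the other 3 mice and in 0 of 75 cells of Lgr6 mouse 2, which allows a share of cells with reads of up to 4% by counting error alone.

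Igf1 was the ligand with more transcripts except in Lgr5 mouse 1, where Igf1 and Igf2 were about even. The levels of Igf1 were 2.22 and 3.40 in the Lgr5+ mice against 4.48 and 4.59 in the Lgr6+ mice, and its summed counts 53.7 and 127.5 CPM against 389 and 309 CPM. Both Lgr6+ mice lay above both Lgr5+ mice, with a log2 difference of -1.95 (Lgr5+ minus Lgr6+, standard error 0.57) and an adjusted p of 0.331 (edgeR). Igf2 had levels of 2.29 and 1.96 in the Lgr5+ mice against 0.34 and 1.45 in the Lgr6+ mice. Its summed counts of 49.8 and 35.1 CPM against 2.14 and 23.98 CPM gave a log2 difference of 1.70 with a standard error of 1.26, and an adjusted p of 0.756 (edgeR). Igf1r was close to even, with levels of 2.03 and 1.48 against 1.35 and 1.55, and reads in 17 of 29, 13 of 28, 20 of 50 and 41 of 75 cells. In 19 of those cells the deposited level of Igf1r was 0 despite reads, which happened 34 times over all members, so shares by reads and by level differ for this gene.

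Over the lines, 7 of 9 members had mice that did not overlap in mean level, as had 50.9% of all genes tested. Igf2, Igfbp2, Igfbp3 and Igfbp5 were higher in both Lgr5+ mice, and Igf1, Igfbp6 and Igfbp7 in both Lgr6+ mice. Igfbp2 had reads in only 3 kept cells, so its order rests on those cells alone. With edgeR and Benjamini-Hochberg adjustment, 0 of 9 members and 0 of 14086 genes (0.0%) passed an adjusted p of 0.05. At an unadjusted p under 0.05, 4 of 9 members (Igf1, Igfbp3, Igfbp5 and Igfbp6) and 1312 of 14086 genes (9.31%) lay past the threshold. DESeq2 called 567 genes, and limma on scaled counts called 62, with Igfbp3 among both. Of 13 alternatives to the fit, Igfbp3 passed the adjusted threshold under 4, and Igf1 and Igfbp6 under 1 each.

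**Figure D2:**
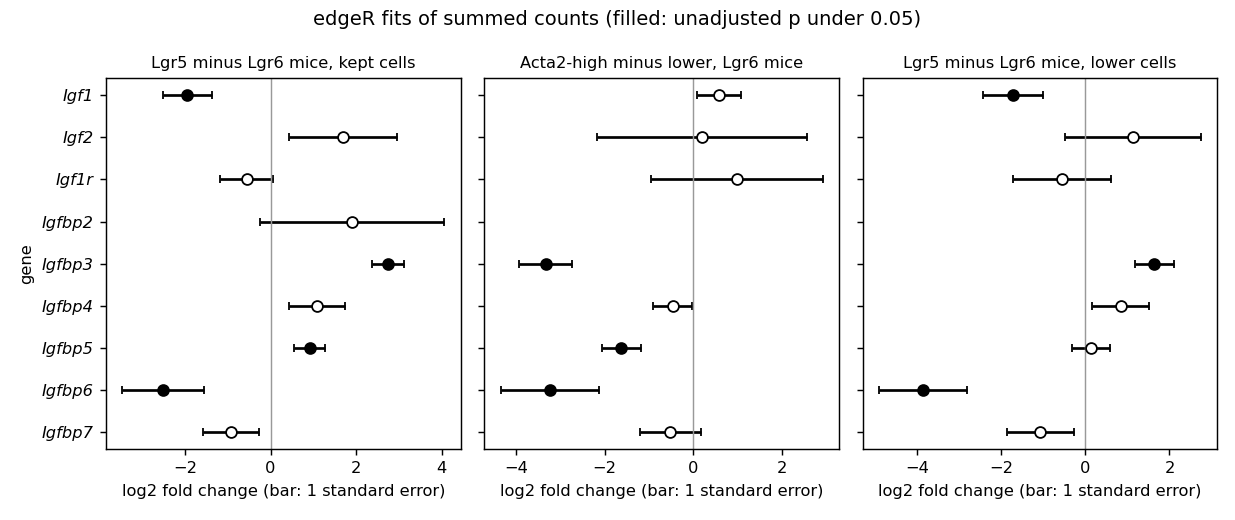
Log2 fold changes of summed counts from edgeR (points) with 1 standard error on either side (bars) for the 3 comparisons; filled points had an unadjusted p under 0.05, and Igfbp2 was not tested in those that involve the Acta2 classes. Igfbp3 lies at 2.74, -3.33 and 1.64, and no point passed the adjusted threshold.

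The second comparison asked how the family differed between Acta2-high and Acta2-lower cells of the same Lgr6+ mice. Igfbp3 was read mostly in Acta2-lower cells, with reads in 3 of 27 and 2 of 38 Acta2-high cells and in 10 of 23 and 17 of 37 Acta2-lower cells. Its levels were 0.88 and 0.47 in Acta2-high cells and 3.87 and 3.76 in Acta2-lower cells. In summed counts these were 30.6 and 50.1 CPM against 468 and 333 CPM, which gave a fitted log2 difference of -3.33 (high minus lower, standard error 0.60) with an adjusted p of 0.449 (edgeR). Over narrower bins of Acta2, 0 of 7 and 0 of 17 Lgr6+ cells at an Acta2 level of 13 and above had Igfbp3 reads, against 5 of 7 and 7 of 16 cells with no Acta2. Igfbp3 passed the adjusted threshold with DESeq2, which called 7.40% of genes, and with limma on scaled counts, which called 1.53%. DESeq2 also called Igfbp6 (adjusted p = 0.00684), and limma also called Igfbp5 (adjusted p = 0.0217).

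Igfbp5 had levels of 2.96 and 3.63 in Acta2-high cells and 4.56 and 5.12 in Acta2-lower cells. Its summed counts were 218 and 287 CPM against 976 and 605 CPM, which gave a fitted log2 difference of -1.62 with a standard error of 0.45 and an adjusted p of 0.602 (edgeR). In Lgr6 mouse 1, 1 cell of each class held 57.4% (Acta2-high) and 57.2% (Acta2-lower) of the Igfbp5 reads. Igfbp5 differed from Igfbp3 in the share of cells, which was 51.9% and 65.8% of Acta2-high cells and 65.2% and 67.6% of Acta2-lower cells. The cells that had Igfbp5 reads had mean levels of 5.6995 and 5.52 in the Acta2-high class and 7.00 and 7.58 in the lower class.

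Igf1 was read in 22 of 27 and 29 of 38 Acta2-high cells and in 10 of 23 and 22 of 37 Acta2-lower cells. Its levels were 5.62 and 5.46 against 3.15 and 3.69, higher in Acta2-high cells of both mice, but the summed counts were 372 and 409 CPM against 376 and 183.5 CPM, which gave a fitted log2 difference of 0.57 with a standard error of 0.50. In Lgr6 mouse 1, 30.96% of the Igf1 reads of the Acta2-lower class came from 1 cell. Among Acta2-lower cells of Lgr6 mouse 2, Igf1 was read in 17 of 21 cells with some Acta2 and in 5 of 16 with none. In Lgr6 mouse 1 it was read in 8 of 16 and 2 of 7.

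**Figure D3:**
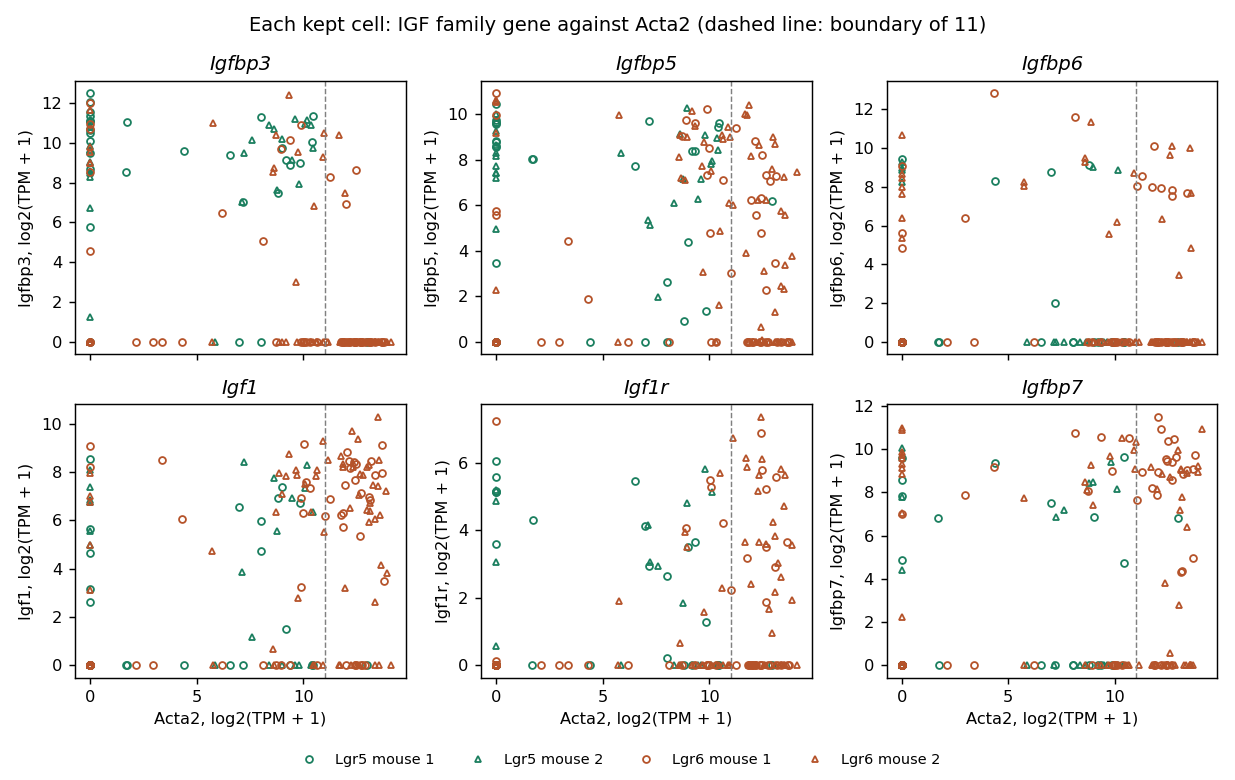
Level of 6 genes (vertical axes) against the level of Acta2 (horizontal axes) in each kept cell, with green symbols for Lgr5+ and orange for Lgr6+ cells, circles for mouse 1 and triangles for mouse 2 of each line; the dashed line is the boundary of 11. To the right of it Igfbp3 was read in 3 of 27 and 2 of 38 Lgr6+ cells and Igf1 in 22 of 27 and 29 of 38.

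Igf1r had levels of 1.51 and 2.54 in Acta2-high cells and 1.15 and 0.53 in Acta2-lower cells. The receptor was read in 29 of 38 Acta2-high and 12 of 37 Acta2-lower cells of Lgr6 mouse 2, and after thinning in 59.5% and 16.7%. Lgr6 mouse 1 showed 11 of 27 and 9 of 23 cells, so the contrast of shares was seen in 1 of 2 mice. Its summed counts even pointed in opposite directions, with 39.3 against 126.5 CPM in Lgr6 mouse 1 and 123.4 against 9.71 CPM in Lgr6 mouse 2, where 72.9% of the reads of the lower class of mouse 1 came from 1 cell. The log2 fold change was 0.99 with a standard error of 1.94. Igfbp4 and Igfbp7 likewise differed between the mice. Igfbp7 levels were 6.74 in Acta2-high and 3.17 in Acta2-lower cells of Lgr6 mouse 1, but 3.41 and 4.82 in Lgr6 mouse 2. Igfbp4 levels were 6.45 and 4.36 in Lgr6 mouse 1 and 3.07 and 4.04 in Lgr6 mouse 2.

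Of the 8 members tested between the classes, Igf1 and Igf1r were higher and Igfbp3 and Igfbp5 lower in Acta2-high cells of both mice by mean level, where 31.1% of all genes were higher and 26.4% lower in both. With edgeR and Benjamini-Hochberg adjustment, 0 of 8 members and 4 of 13529 genes (0.0296%) passed an adjusted p of 0.05. Those genes, named after their values were seen, were Acta2, which set the classes, and the surfactant genes Sftpa1, Sftpc and Sftpd, which were lower in Acta2-high cells. At an unadjusted p under 0.05, Igfbp3, Igfbp5 and Igfbp6 and 7.68% of all genes lay past the threshold, and DESeq2 called 923 genes. Igfbp6 had 38.1 and 40.97 CPM in Acta2-high against 1301 and 107.97 CPM in Acta2-lower cells, a log2 difference of -3.24 (standard error 1.11), but 13931 of its 14048 reads in Acta2-lower cells of Lgr6 mouse 1 came from 1 cell. Without that cell this mouse had 39.8 against 16.3 CPM (no TMM scaling), and by mean level it had 2.43 against 2.19, so that it went the other way from Lgr6 mouse 2 (1.37 against 3.30). With Lgr6 mouse 2 alone the log2 difference was -1.34. All 8 alveolar fibroblast markers had a lower fitted level in Acta2-high cells, by a median log2 difference of -8.17 that depends on the prior count where a class had no reads, beside a median of 0.02 over all genes. The 9 of 10 dissociation response genes with a lower fitted level gave their list a median of -1.11. The cells next to the boundary had Acta2 levels of 11.03, 11.13 and 11.25 just inside and 10.97, 10.93 and 10.90 just outside, with Igfbp3 read in 1 of the 3 inside and 2 of the 3 outside.

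**Figure D4:**
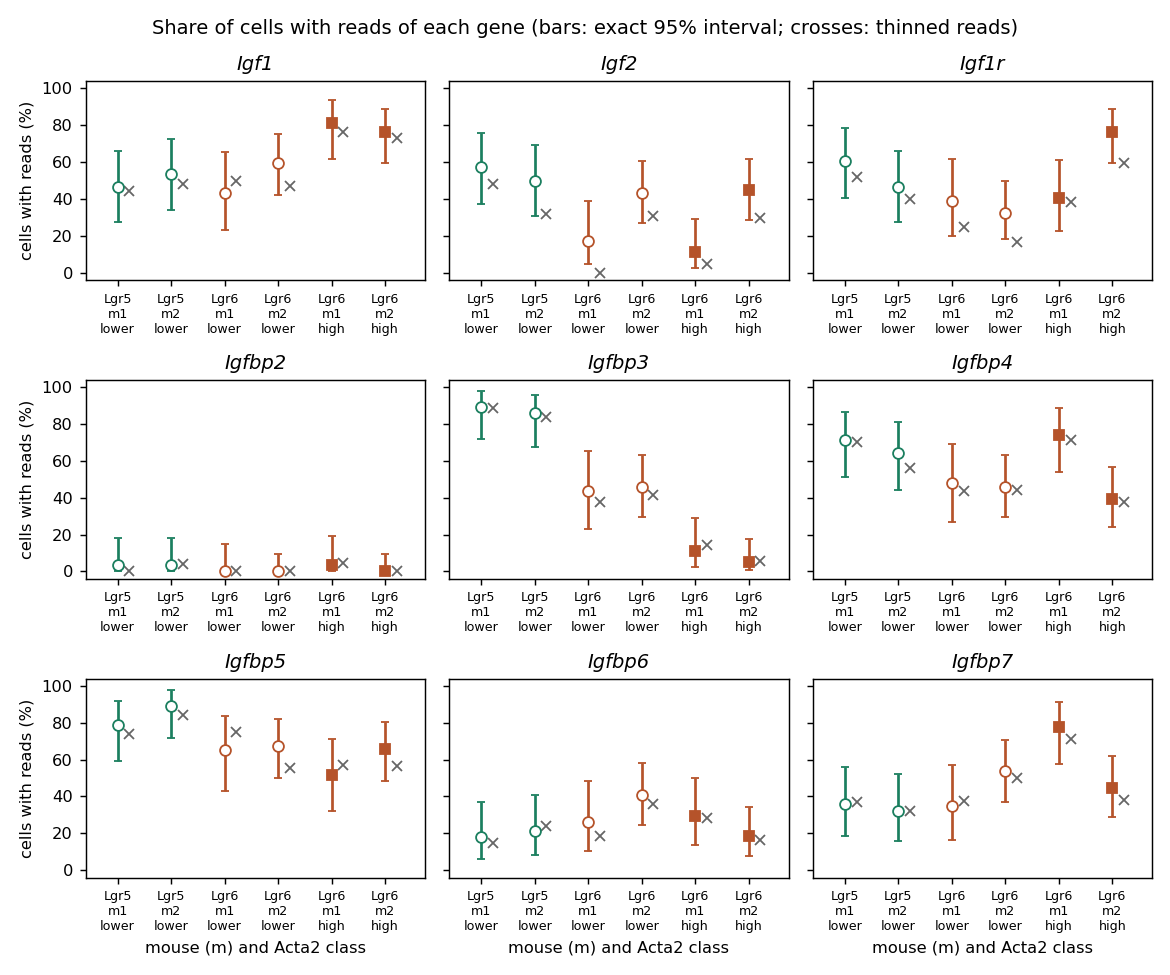
Percent of cells with reads of each gene by mouse (m1, m2) and Acta2 class, with green symbols for Lgr5+ and orange for Lgr6+ mice, open circles for Acta2-lower and filled squares for Acta2-high cells. Bars are exact 95% intervals and crosses are shares after thinning to 99000 reads. Igfbp3 runs from 89.3% and 85.7% in Lgr5+ cells to 11.1% and 5.26% in Acta2-high Lgr6+ cells.

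The third comparison set the Acta2-lower cells of the lines side by side, since nearly all Lgr5+ cells were of that class. Igfbp3 had levels of 8.84 and 7.90 in the Lgr5+ mice against 3.87 and 3.76 in the Lgr6+ mice. Its summed counts were 1242 and 1368 CPM against 504 and 332 CPM, which gave a fitted log2 difference of 1.64 (standard error 0.46) with an adjusted p of 0.328 (edgeR). It was read in 25 of 28 and 24 of 28 Lgr5+ cells and in 10 of 23 and 17 of 37 Lgr6+ cells. Igfbp3 thus ran in the order Acta2-lower Lgr5+, Acta2-lower Lgr6+ and Acta2-high Lgr6+ cells, with no overlap between mice of neighboring groups.

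Igf1 had levels of 2.30 and 3.40 in Acta2-lower Lgr5+ cells and 3.15 and 3.69 in Acta2-lower Lgr6+ cells, which overlapped, while both lay below the 5.62 and 5.46 of Acta2-high cells. Its summed counts did not overlap, at 57.2 and 120.6 against 404 and 182.95 CPM, with a log2 difference of -1.72 (standard error 0.72, adjusted p = 0.609 (edgeR)). Igfbp4 had levels of 6.66 and 5.27 against 4.36 and 4.04 and Igf1r of 2.10 and 1.48 against 1.15 and 0.53, without overlap. Igfbp6 gave a log2 difference of -3.87 (standard error 1.05, adjusted p = 0.328 (edgeR)), but 13931 of its 14048 reads in Acta2-lower cells of Lgr6 mouse 1 lay in 1 cell. Without that cell its level in this mouse was 16.3 CPM instead of 1252 CPM, both without TMM scaling, where the Lgr5+ mice had 37.03 and 72.6 CPM and Lgr6 mouse 2 had 105.7 CPM. By mean level 7 of 8 members had lines that did not overlap, where 47.1% of all genes did. Igf2, Igf1r, Igfbp3, Igfbp4 and Igfbp5 were higher in both Lgr5+ mice, and Igfbp6 and Igfbp7 in both Lgr6+ mice. For Igfbp6 the mean level of Lgr6 mouse 1 includes the cell named above, with reads in only 6 of 23 cells. This mean was not computed without that cell, so the place of Igfbp6 among the 7 is uncertain. Summed counts overlapped for Igf1r, at 50.7 and 48.3 against 136.1 and 9.68 CPM, and its log2 difference of -0.56 (standard error 1.17) had the opposite sign. They overlapped for Igfbp5 too, at 845 and 966 against 1051 and 603 CPM, with a log2 difference of 0.13 (standard error 0.46). In Lgr6 mouse 1, 1 cell held 57.2% of these Igfbp5 reads. With edgeR and Benjamini-Hochberg adjustment, 0 of 8 members and 0 of 12958 genes (0.0%) passed, while Igf1, Igfbp3 and Igfbp6 and 7.53% of all genes lay under an unadjusted p of 0.05. There DESeq2 called 389 genes, Igfbp6 among them but not Igfbp3, and limma on scaled counts called 10.

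Binding proteins were then compared by their share of the summed Igfbp TPM, which is corrected for length. In Acta2-lower Lgr5+ cells Igfbp3 made up 47.4% and 48.6% and Igfbp4 33.5% and 23.9%. In Acta2-lower Lgr6+ cells Igfbp3 made up 27.3% and 27.98%, and in Acta2-high cells 2.62% and 6.29%. Igfbp7 ran the other way, from 4.09% and 6.39% in Lgr5+ cells through 14.3% and 22.96% to 47.2% and 32.2% in Acta2-high cells. Summed Igfbp TPM averaged 2882 and 1816 per cell in Acta2-lower Lgr5+ cells, 1944 and 1771 in Acta2-lower Lgr6+ cells, and 1182 and 638 in Acta2-high Lgr6+ cells. The mean TPM of Igfbp7 itself went from 279 in Acta2-lower to 558 in Acta2-high cells of Lgr6 mouse 1, but from 407 to 205.1 in Lgr6 mouse 2, where its share rose while its own TPM and the sum were both lower. Such shares weigh a cell by its TPM, so that a few cells with high levels count for much.

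**Figure D5:**
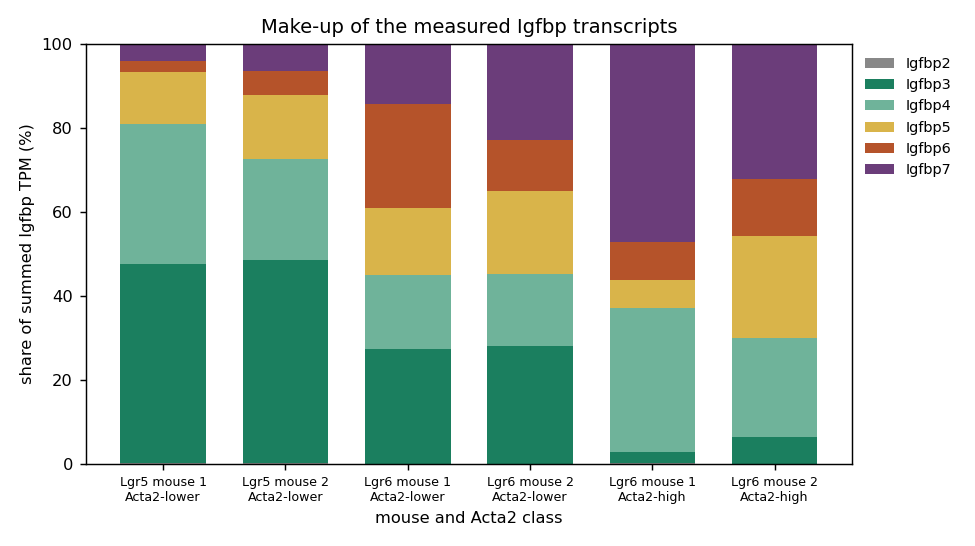
Share of each binding protein in the summed TPM of Igfbp2 to Igfbp7 (stacked bars, percent, adding to 100) for each mouse and Acta2 class. Igfbp3 (dark green) runs from 47.4% and 48.6% in Lgr5+ mice to 2.62% and 6.29% in Acta2-high Lgr6+ cells, Igfbp7 (purple) reaches 47.2% and 32.2% there, and Igfbp2 is too small to be seen.

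Counted by cell, the binding protein with the highest TPM was Igfbp3 in 18 of 29 and 14 of 28 Lgr5+ cells. Among Acta2-high Lgr6+ cells it was Igfbp7 in 13 of 27 and 10 of 38, Igfbp4 in 9 and 11, and Igfbp3 in 0 and 1. Every Lgr5+ cell had reads of at least 1 binding protein, with a median of 3, whereas 3 of 50 and 4 of 75 Lgr6+ cells had none and the median was 2. Igf1 and Igf1r were read together about as often as their separate shares give. Both were read in 10 of 29, 6 of 28, 15 of 50 and 27 of 75 cells, where the product of their shares gives 7.62, 6.96, 12.8 and 27.9 cells. For Igf2 and Igf1r these were 12, 7, 6 and 14 cells, where the product gives 9.38, 6.5, 2.8 and 18.04.

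Pdgfra, which encodes a receptor found on lung fibroblasts, divided the Acta2-lower Lgr6+ cells by binding protein, a division chosen after its values were seen. Of the cells with Pdgfra at a level of 1 or more, 4 of 5 and 8 of 8 had Igfbp6 reads, against 2 of 18 and 7 of 29 of the others. Igfbp7 was read in 4 of 5 and 7 of 8, against 4 of 18 and 13 of 29. Igfbp5 was read in 1 of 5 and 2 of 8, against 14 of 18 and 23 of 29 of the others. Of the 6 and 15 cells with Igfbp6 reads, 2 and 8 had Igfbp5 reads as well, where the product of the shares gives 3.91 and 10.1 cells. Both Lgr6+ mice showed each of these directions. In the Lgr5+ mice only 4 and 2 of the 28 Acta2-lower cells had Pdgfra. Of these, 2 and 0 had Igfbp6 reads (3 of 24 and 6 of 26 of the others) and 1 and 2 had Igfbp7 reads (9 of 24 and 7 of 26). Igfbp5 reads were present in 2 and 2 (20 of 24 and 23 of 26). Igfbp5, Igfbp6 and Igfbp7 thus each went the other way in 1 Lgr5+ mouse. Cells of 1 mouse are not replicates, and no test was made.

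Likeness to other genes was described by Spearman's rho over the cells of a mouse, averaged over the 4 mice, with no test, since the cells of a mouse share depth and preparation. Igfbp3 was most like Enpp2 (autotaxin, mean rho 0.53; 0.77, 0.60, 0.28 and 0.47 by mouse), Lum (lumican, 0.53) and Malat1 (0.47). Igfbp5 was most like Hhip, a hedgehog-binding protein (0.53; 0.65, 0.56, 0.46 and 0.46), then Malat1 (0.53) and Enpp2 (0.52). Within the family the pair with the highest mean rho was Igfbp3 with Igfbp5, at 0.43 (0.62, 0.35, 0.38 and 0.35). Igfbp6 was most like Adh1, at 0.45. For Igf1, Igf2, Igf1r, Igfbp4 and Igfbp7 the highest mean rho was 0.31 to 0.35, with Kcnj8, Flrt1, Mir3064, Penk and Phf5a, which is weak for sparse counts. Igfbp2 had reads in too few cells.

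Other genes of the pathway were taken from lists. Of 21 further IGF axis genes, such as receptors, insulin receptor substrates and the proteases that cut binding proteins, 13 were tested between the lines, 7 higher and 6 lower in Lgr5+ mice, with a median log2 difference of 0.05 beside -0.05 over all genes. All 12 genes of the PI3K-AKT and adaptor list were tested, 5 higher and 7 lower, with a median of -0.11. Of 8 CCN and related genes, which share a domain with IGF binding proteins, 5 were tested, 1 higher and 4 lower, with a median of -1.11. Of these lists 0 genes passed the adjusted threshold of edgeR in any of the 3 comparisons. At an unadjusted p under 0.05 (edgeR) there were Irs1 and Foxo3 between the lines, both lower in Lgr5+ mice, beside 9.31% of all genes. Between the classes there were Ctgf and Wisp2, 1 higher and 1 lower in Acta2-high cells, beside 7.68%. Between Acta2-lower cells there was Foxo3, lower in Lgr5+ mice, beside 7.53%.

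The 6 genes of these lists with the highest mean level over the mouse sums were Cyr61, Ghr, Htra1, Irs2, Akt2 and Shc1. Cyr61, a matricellular CCN protein, had 691 and 592 CPM in the Lgr5+ mice against 761 and 752 CPM in the Lgr6+ mice. Ghr, the growth hormone receptor through which growth hormone raises Igf1, had 108.7, 255, 239 and 160.5 CPM, so that the lines overlapped. Htra1, a protease known to cut IGF binding proteins, had 171.4 and 133.8 against 170.99 and 106.2 CPM. Irs2, an adaptor below the receptor, had 85.8 and 80.3 against 136.4 and 97.4 CPM. The kinase Akt2 had 64.7 and 96.2 against 125.9 and 110.8 CPM, and the adaptor Shc1 had 82.7 and 124.96 against 51.5 and 82.6 CPM. The log2 fold changes of these 6 between the lines ran from -0.56 to 0.63, with standard errors of 0.35 to 0.60.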

How the data were processed

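Single cells were sorted into plates, and full-length cDNA was amplified by PCR (SmartSeq2) and sequenced. Per the labels, the authors used bcl2fastq 2.17.1.14 and kallisto 0.43.0 on mm10. The authors deposited kallisto's estimated counts per gene, as whole numbers, for 384 wells, together with log2(TPM + 1). For 182 wells that passed their filter the authors deposited log2(TPM + 1) and a score, counts scaled to a common depth, of 22276 of 23422 genes. The annotation release is not given in the sources used here.

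Kept cells' counts were added up by mouse, or by mouse and Acta2 class (at least 3 cells on either side), and fitted with edgeR 4.0.16 (TMM, filterByExpr, glmQLFit, glmQLFTest) in R 4.3.3, with the mouse as a block between classes. Alternatives were DESeq2 1.42.0, limma 3.58.1, other filters, scalings, boundaries and sets of cells or mice; those without Rn45s, without 1 Igfbp6-rich cell, for mean levels and for a boundary of 10 in Lgr6+ mice alone were chosen after seeing the data. No label says more of replicates than a mouse number. Fits were tested on simulated data. Standard errors of edgeR fits were derived from the quasi-likelihood F statistic, as the absolute log2 fold change divided by the square root of F. CPM are TMM-scaled unless stated; rRNA gene Rn45s took 25.0 to 37.5% of a mouse's counts. Named genes were the 9 members, the 6 pathway genes with the highest mean level, and the 3 genes most like each member, among genes with reads in at least 5 cells of every mouse. Members and lists were chosen with earlier results of these data known. Coordinates are from GENCODE vM21, and promoter windows from RefSeq GRCm38.p6, where all 9 members matched. Python 3.11.15 with pandas 2.3.3, scipy 1.17.1 and matplotlib 3.10.9 was used.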

Additional observations from a re-analysis of the deposited data

Results flagged for a closer look

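Wells outside the comparisons held reads of the family. The 4 pool wells, 1 per mouse, have no single-cell controls. The pool of Lgr5 mouse 1 held 80 counts of Igfbp3, 67 of Igfbp6, 45 of Igfbp7, 6 of Igf2 and 4 of Igf1, and that of Lgr5 mouse 2 held 680 of Igfbp3, 313 of Igfbp4 and 74 of Igfbp5. The pool of Lgr6 mouse 1 held 42 counts of Igf1, 16 of Igfbp6 and 5 of Igfbp7, and that of Lgr6 mouse 2 held 1302 of Igf1, 449 of Igfbp7 and 329 of Igfbp4. Igfbp3 was at 0 in both Lgr6+ pools, whose totals were 66586 and 2203576 counts. So was Igfbp5, although it was read in 58% and 66.7% of the kept cells of these mice. Igfbp4 and Igfbp5 were at 0 in the pool of Lgr5 mouse 1, where 72.4% and 79.3% of kept cells had them. A count of 0 in a pool thus says little.

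Of the Lgr5-line wells that the authors removed, 54 had at least 2000 genes with reads and both Pecam1, an endothelial marker, and Ptprc, an immune marker, at a level of 1 or more. Members were read in 46 (Igf1), 27 (Igf2), 48 (Igf1r), 10 (Igfbp2), 42 (Igfbp3), 50 (Igfbp4), 44 (Igfbp5), 42 (Igfbp6) and 40 (Igfbp7) of these 54 wells. Lgr5 was read in 40 of them. Igfbp3 reads were also present in 20 of 28 wells with Pecam1 alone and 13 of 18 with Ptprc alone. Removed wells with at least 2000 genes and neither marker went the other way between the lines. There Igfbp3 was read in 3 of 13 Lgr5-line and 5 of 7 Lgr6-line wells, with mean levels of 1.87 and 5.95. Of the Lgr6-line wells with Ptprc alone, 2 of 3 had Igfbp3 reads.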

How the results depend on the processing

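Calls depended on the tool. Between the lines, where edgeR called 0% of genes tested, DESeq2 called 4.11% (567 genes), no filter on low counts 2.07%, limma on scaled counts 0.440% and limma on mean TPM 0.270% and 0.114% (pseudocounts of 1 and 0.1). Leaving out each mouse gave 0 to 0.217%, the latter without Lgr6 mouse 1. Between Acta2-lower cells the same settings gave 3.06%, 0.818%, 0.0772%, 0.216% and 0.0232% beside 0%, and leaving out each mouse gave 0.0409% (without Lgr5 mouse 2) to 0.501% (without Lgr6 mouse 2). Between the classes, where edgeR called 0.0296% (4 genes), DESeq2 called 7.40% (923 genes), limma 1.53%, 0.310% and 0.0813%, a boundary of 10 called 0.124% with both Lgr5+ mice, which then have 3 and 4 Acta2-high cells and enter the fit, and 0.0820% in the Lgr6+ mice alone, leaving out Rn45s 0.0520%, and a boundary of 12, no mouse block and leaving out cells with Epcam reads 0% each. Leaving out 1 mouse there leaves 1 mouse and no test. In the comparisons of the lines it leaves 1 mouse in a line, which is assumed to vary like the others.

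Igfbp3 kept its direction under the alternatives run, from 2.03 to 3.15 between the lines (log2) and 1.10 to 1.99 between Acta2-lower cells. Between the classes it ran from -8.73 to -1.38, the latter at a boundary of 10 with the Lgr5+ mice (-3.03 in the Lgr6+ mice alone) and the former at a boundary of 12, where 1 mouse had no Igfbp3 reads in Acta2-high cells, so that the value depends on the prior count. It passed the adjusted threshold under 4 of 13 alternatives between the lines (DESeq2, no filter, limma on scaled counts, and without Lgr6 mouse 1), 3 of the 12 that have a test between the classes and 0 of 15 between Acta2-lower cells.

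Other directions turned, and the cause was not tested. Between the classes Igf1 was -0.022 and Igf1r -0.21 at a boundary of 10 with the Lgr5+ mice, but 0.68 and 1.32 there in the Lgr6+ mice alone, a setting chosen after seeing the data. Igfbp4 was 0.012 at 12, Igf2 was -1.71 without the mouse block, and Igfbp7 was 0.066 with limma on scaled counts and 0.0075 and 0.0071 on mean TPM. Leaving out each Lgr6+ mouse there gave -1.57 to 3.72 for Igf1r, -2.05 to 2.71 for Igf2 and -1.21 to 0.35 for Igfbp7. Between Acta2-lower cells Igf1r was 1.138, 0.76 and 0.92 with limma and 0.44 with the replicate block, and -1.48 to 2.37 when each mouse was left out. Igfbp5 was -0.0481 and -0.0482 with limma on mean TPM, -0.16 at a boundary of 10, and -0.23 to 0.60 when each mouse was left out.

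Mouse numbers name animals, and no label pairs animals of different lines. The deviations of same-numbered mice correlated at 0.04 over 14086 genes (2 pairs), a single value that cannot show whether they shared a preparation. With the number as a replicate block, 0 genes passed in both comparisons of the lines. Over whole mice, thinning moved the share of cells with reads outside its interval for Igf2 in Lgr6 mouse 1 (2.70%) and mouse 2 (30.1%), Igf1r in Lgr6 mouse 2 (38.4%) and Igfbp2 in Lgr5 mouse 1 (0%), and so did a level of 1 or more for Igf2 (32%) and Igf1r (37.3%) in Lgr6 mouse 2. By class, thinning did so for Igf1r in Acta2-high (59.5%) and Acta2-lower cells (16.7%) of Lgr6 mouse 2, as did a level of 1 or more (57.9% and 16.2%), and thinning for Igf2 in Acta2-lower cells of Lgr6 mouse 1 (0%) and Igfbp2 in those of Lgr5 mouse 1 (0%). The shallowest kept cell had 9748 counts, so absence of a low member from a cell says little at this depth.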
